A study of Mus musculus with 6 samples.

Results

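The MYC, MAX and MXD network was followed here as 10 named genes (*Myc*, *Mycn*, *Max*, *Mxd1*, *Mxd3*, *Mxd4*, *Mxi1*, *Mnt*, *Mga* and *Tfap4*) of the 23337 genes in the deposited RNA sequencing table. All 10 were found by symbol, 9 had at least 1 read, and 7 had enough reads to be tested. The samples were germinal center (GC) B cells sorted from mixed bone marrow chimeras on the C57BL/6 background. They comprised 3 *Hvem*-/- samples (replicates 2, 4 and 6, CD45.2) and 3 WT samples (replicates 1, 3 and 5, CD45.1/2 in the labels and CD45.1 in the paper). In the general protocol for chimeras the hosts were irradiated WT CD45.1 mice, or *Rag2*-/- or *Tcrb*-/- mice where stated. The cells of both genotypes came from marrow that had reconstituted for 8 weeks, and all were taken at day 11 after immunization with the hapten-carrier antigen NP-CGG in alum. From each, 50000 cells were sorted by the gate B220+ IgDlo CD38lo GL7+ Fas+. The paper places both genotypes in the same chimeras, but no source used here says which samples share a mouse or which of the *Hvem*-deficient lines was used. Genotype and donor line coincide, so loss of HVEM cannot be told apart from other differences between the donors. No source states that the samples of a genotype came from separate mice, so p-values measure only the spread between these samples.

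MYC and its relative N-MYC (*Mycn*) bind DNA only when paired with MAX, and the pair reads a short palindrome called the E-box. The MXD proteins (*Mxd1*, *Mxd3*, *Mxd4* and *Mxi1*) and MNT also pair with MAX at E-boxes, but they recruit SIN3 and histone deacetylases and repress. MGA is another partner of MAX and works within a variant Polycomb complex. TFAP4 is induced by MYC and reads a different E-box. In the GC, MYC protein is found in a small fraction of light zone B cells that have received help from T follicular helper cells, and the comparison asks whether the transcripts of the network differ in GC B cells that lack HVEM, a receptor that engages BTLA on T cells.

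The E-boxes near the start sites of network genes are shown first because they are the kind of sequence that these proteins read. Whether the proteins act on genes of the network itself was not tested. Promoters running from 250 bases before to 50 bases after the start were found in RefSeq (GRCm38.p6) for 8 of the 10 members, and not for *Myc* and *Tfap4*. The MYC:MAX E-box CACGTG, which reads the same on both strands, was present in the promoters of *Max*, *Mxd4* and *Mnt*. Its first base lies 219 bases before the start of *Mxd4* and 123 before that of *Mnt*. In *Max* it begins 3 bases before the RefSeq start and so spans it, and the start of *Max* in GENCODE lies 47 bases further downstream. The first bases after the RefSeq start of *Max* were not found in a GENCODE transcript of the gene. The TFAP4-type E-box CAGCTG, also a palindrome, was found 23 bases after the *Mga* start. Among all 300-base promoters in the same table, 7.15% hold CACGTG and 16.3% hold CAGCTG. The windows of 60 bases that hold them are printed on the strand of the gene, with the E-box in capitals. A match describes letters only and is no measurement of binding.
Max, chr12:76962219-76962278, minus strand: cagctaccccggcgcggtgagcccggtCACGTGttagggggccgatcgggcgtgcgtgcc
Mxd4, chr5:34187897-34187956, minus strand: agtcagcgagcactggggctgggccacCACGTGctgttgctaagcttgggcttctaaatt
Mnt, chr11:74830774-74830833, plus strand: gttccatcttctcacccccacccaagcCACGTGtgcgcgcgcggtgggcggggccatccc
Mga, chr2:119897218-119897277, plus strand: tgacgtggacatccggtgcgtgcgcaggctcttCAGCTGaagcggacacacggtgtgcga

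The values below are normalized counts, that is, read counts divided by the authors' size factor for each sample, and raw reads are given for the scarcer members. The libraries held 2505918 to 3321048 reads in genes in *Hvem*-/- samples and 2557741 to 3636163 in WT samples. *Tnfrsf14*, the gene of HVEM, had 0, 0 and 4 reads in *Hvem*-/- replicates 2, 4 and 6, against 13, 11 and 17 in WT replicates 1, 3 and 5, so all its reads in *Hvem*-/- cells were in replicate 6. All 14 listed markers of GC B cells were detected. Summed markers of T cells, which the gate is meant to exclude, were 299.1 to 457.8 normalized counts in *Hvem*-/- samples and 603.4 to 629.7 in WT samples, and none of the 13 was at 0. Markers of naive and memory B cells summed to 768.3 to 813.1 in *Hvem*-/- samples and 950.6 to 1219 in WT samples. Summed myeloid markers overlapped between genotypes, at 500.1, 82.1 and 165.5 in *Hvem*-/- replicates 2, 4 and 6. They were 319.3, 136.5 and 233.0 in WT replicates 1, 3 and 5. Of 10 proliferation genes such as *Mki67*, 6 rose at an adjusted p under 0.01 from edgeR, against 0.186% of all tested genes. Their list median was 0.61 on the log2 scale. Of 12 DNA replication genes such as *Mcm3*, none passed that threshold and 10 were below 0, with a list median of -0.27. Of these 10, 7 had an unadjusted p under 0.05 from edgeR, and 5.22% of all tested genes were lower at that level. The part of these shifts in the values of the network was not tested.

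At an adjusted p threshold of 0.01, none of the 7 tested members rose or fell in *Hvem*-/- GC B cells. The test was edgeR's quasi-likelihood test with Benjamini-Hochberg adjustment over 9653 genes, of which 0.218% passed (0.186% higher and 0.0311% lower in *Hvem*-/- cells). No member passed in DESeq2 or limma either, nor at an adjusted p under 0.05 in edgeR, which 0.508% of all genes reached. DESeq2 gave no adjusted p for *Mxi1*. The edgeR test before adjustment gave p under 0.05 for 1 member, *Myc*, which was higher in *Hvem*-/- cells, against 6.72% of all tested genes higher, 5.22% lower and 11.9% in either direction. The 95% intervals of the fold changes, plotted for the tested members, were widest in the scarcer genes and narrowest in *Max* and *Mga*. Their upper ends were 1.39-fold in *Max*, 1.26-fold in *Mga* and 1.86-fold in *Myc*. The median log2 fold change of the 7 tested members was 0.11, and that of all tested genes was -0.01.

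**Figure D1:**
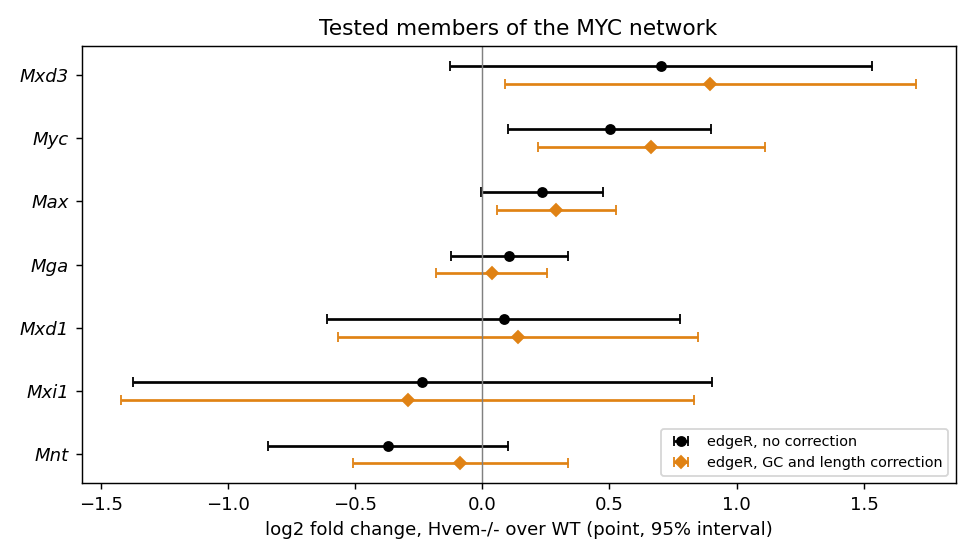
The horizontal axis is the log2 fold change of *Hvem*-/- over WT and each row is a tested member. Points are edgeR estimates and bars their 95% intervals, without (black) and with (orange) a correction for GC content and transcript length. *Mnt* moves most towards 0 with the correction, to -0.09 as against -0.37 without it.

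*Myc*, the transcription factor at the center of the network, lies on chromosome 15 of GRCm38 from 61985391 to 61990374, with 3 exons. It had 310.8, 340.0 and 541.5 normalized counts in *Hvem*-/- replicates 2, 4 and 6, against 220.7, 336.2 and 281.5 in WT replicates 1, 3 and 5. *Hvem*-/- replicate 6 stood above all others, WT replicate 1 below all others, and the groups overlapped, since WT replicate 3 lay above *Hvem*-/- replicate 2. The log2 fold change was 0.50 (95% interval 0.10 to 0.90, adjusted p = 0.293 from edgeR), and *Myc* ranked 542 of 9653 by p. Without *Hvem*-/- replicate 6 the log2 fold change of *Myc* was 0.22 (adjusted p = 0.831 from edgeR), without WT replicate 1 it was 0.36 (adjusted p = 0.723), and with a correction for GC content and length it was 0.66 (adjusted p = 0.260). In sorted bulk cells, more MYC-expressing cells and more *Myc* RNA per cell cannot be told apart.

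*Max* encodes the shared partner of MYC, the MXD proteins, MNT and MGA, and lies on chromosome 12 from 76937269 to 76962201. It had 1183, 1333 and 1484 normalized counts in *Hvem*-/- replicates 2, 4 and 6, against 1100, 1136 and 1147 in WT replicates 1, 3 and 5. Every *Hvem*-/- sample lay above every WT sample, and the WT samples were close together (1128 ± 24.5, SD, n = 3), while the *Hvem*-/- samples spread more widely (1333 ± 150.4, SD, n = 3). The log2 fold change was 0.24 (95% interval -0.0049 to 0.48, adjusted p = 0.432 from edgeR), so a rise of more than 1.39-fold lay outside the interval. Without *Hvem*-/- replicate 6 it was 0.16.

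*Mga*, the large MAX partner of the Polycomb complex, lies on chromosome 2 from 119897228 to 119969581 and has 24 exons in its longest transcript. It had 1264, 1285 and 1425 normalized counts in *Hvem*-/- replicates 2, 4 and 6, against 1234, 1227 and 1214 in WT replicates 1, 3 and 5. The groups did not overlap, yet the gap was small, and the log2 fold change was 0.11 (95% interval -0.12 to 0.34, adjusted p = 0.751 from edgeR). With the GC and length correction the fold change of *Mga* was 0.04.

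*Mxd3*, the MXD member that is transcribed in proliferating cells, lies on chromosome 13 from 55325168 to 55329823. It had 33.4, 40.6 and 24.8 normalized counts (30, 46 and 21 reads) in *Hvem*-/- replicates 2, 4 and 6, against 19.5, 21.1 and 20.2 (20, 19 and 27 reads) in WT replicates 1, 3 and 5. All *Hvem*-/- samples lay above all WT samples, with *Hvem*-/- replicate 4 the highest. Its log2 fold change was the largest among the tested members at 0.70 (95% interval -0.13 to 1.53, adjusted p = 0.514 from edgeR). With the GC and length correction it was 0.90 (adjusted p = 0.452 from edgeR). The proliferation genes also had their highest sample median in *Hvem*-/- replicate 4 (0.47 in log2 units above the mean of the 6 samples), against 0.26 and 0.23 in *Hvem*-/- replicates 2 and 6 and -0.34 to -0.25 in WT samples. The medians of the replication genes ran the other way, at -0.27 to -0.05 in *Hvem*-/- samples and 0.05 to 0.22 in WT samples, and the part of either list in the *Mxd3* value was not tested. Exons of *Mxd3* share 105 bases with *Prelid1* on the opposite strand, which had 882 reads over all samples. Whether the counting used strand was not given in the sources used here, so reads in that stretch may belong to either gene.

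*Mxd1* and *Mxi1*, which are linked to cells that leave the cycle and differentiate, varied more within a genotype than between genotypes. *Mxd1* (chromosome 6, 86647042 to 86669161) had 74.6, 38.0 and 139.5 normalized counts in *Hvem*-/- replicates 2, 4 and 6, against 84.0, 89.9 and 61.2 in WT replicates 1, 3 and 5. The *Hvem*-/- samples held both the lowest and the highest value, with a coefficient of variation of 61.2% as against 19.3% in WT. The log2 fold change of *Mxd1* was 0.08 (95% interval -0.61 to 0.78, adjusted p = 0.949 from edgeR), and it was -0.48 without *Hvem*-/- replicate 6 and 0.14 with the GC and length correction. *Mxi1* (chromosome 19, 53310518 to 53375810) had 16, 10 and 14 reads in *Hvem*-/- replicates 2, 4 and 6, against 19, 22 and 11 in WT replicates 1, 3 and 5. Its groups overlapped, and its log2 fold change of -0.23 had a 95% interval of -1.37 to 0.90.

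*Mnt*, the MAX partner that most cells express whether they divide or rest, lies on chromosome 11 from 74830920 to 74845725. It had 99.1, 92.7 and 69.8 normalized counts in *Hvem*-/- replicates 2, 4 and 6, against 130.8, 92.1 and 114.3 in WT replicates 1, 3 and 5. *Hvem*-/- replicate 6, the sample with the most *Myc*, had the least *Mnt*, and WT replicate 1, with the least *Myc*, had the most *Mnt*. The groups overlapped only because WT replicate 3 lay just below *Hvem*-/- replicates 2 and 4. The log2 fold change of *Mnt* was -0.37 (95% interval -0.84 to 0.10, adjusted p = 0.557 from edgeR), and -0.09 with the GC and length correction.

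**Figure D2:**
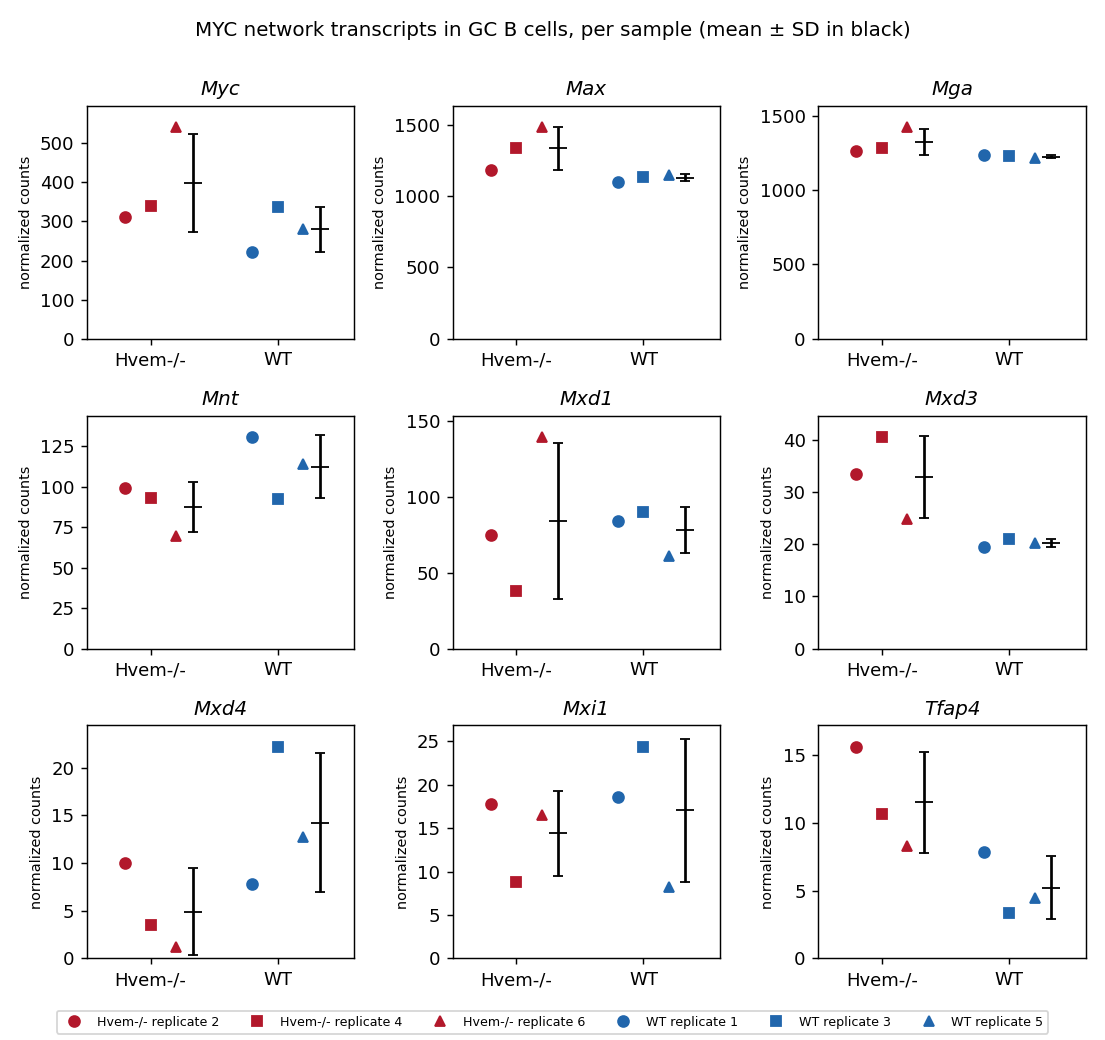
Each panel shows the normalized counts (vertical axis, from 0) of a member in the 3 *Hvem*-/- (red) and 3 WT (blue) samples, with the mean and SD of each genotype in black. *Max*, *Mga*, *Mxd3* and *Tfap4* have all red points above all blue points, while the other panels overlap.

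*Mxd4*, *Tfap4* and *Mycn* had too few reads for the test. *Mxd4*, an MXD member linked to resting cells (chromosome 5, 34173883 to 34187720), had 9, 4 and 1 reads in *Hvem*-/- replicates 2, 4 and 6, against 8, 20 and 17 in WT replicates 1, 3 and 5. *Hvem*-/- replicate 2 lay within the WT range and the other *Hvem*-/- samples below it. The pooled level in *Hvem*-/- over WT was 0.352 (95% exact interval 0.178 to 0.652, counting error only). When low genes were kept in edgeR, the log2 fold change of *Mxd4* was -1.51 (standard error 0.751, adjusted p = 0.475). The summed T cell markers and the summed naive and memory B cell markers were also lower in every *Hvem*-/- sample than in any WT sample. Among them only *Fcer2a*, a marker of naive B cells, passed the threshold, while *Lck* (0.19) and *Gpr183* (0.29) had fold changes above 0 on the log2 scale, and the part of these markers in the *Mxd4* value was not tested. Exons of *Mxd4* share 514 bases with the antisense gene *Gm42846*, and those of *Mxi1* share 194 bases with *Gm10197* on the opposite strand.

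*Tfap4*, which sustains the MYC program after MYC itself declines (chromosome 16, 4544661 to 4559854), had 14, 12 and 7 reads in *Hvem*-/- replicates 2, 4 and 6, against 8, 3 and 6 in WT replicates 1, 3 and 5. After division by size factors these were 15.6, 10.6 and 8.28 normalized counts in *Hvem*-/- samples and 7.81, 3.33 and 4.48 in WT samples, with no overlap and the nearest values 8.28 and 7.81 almost touching. The pooled level in *Hvem*-/- over WT was 2.19 (95% exact interval 1.19 to 4.20, counting error only), and the log2 fold change with low genes kept was 1.12 (standard error 0.800, adjusted p = 0.684 from edgeR). The sample with the most *Tfap4*, *Hvem*-/- replicate 2, was not the sample with the most *Myc*. *Mycn* (chromosome 12, 12936093 to 12941914) had 0 reads in all 6 samples, which allows up to 0.369 CPM in the pooled *Hvem*-/- samples and 0.327 in the pooled WT samples (3 reads per genotype).

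Every *Hvem*-/- sample exceeded every WT sample in 3 of the 7 tested members (*Max*, *Mga* and *Mxd3*) and none showed the reverse, as compared with 8.74% of all tested genes that were higher in this sense and 8.09% that were lower, or 16.8% in either direction. *Hvem*-/- replicate 6 gave the highest value of *Myc*, *Max*, *Mga* and *Mxd1* and the lowest of *Mnt* and *Mxd4*. It was also the sample with the fewest reads in genes, 2505918, although *Hvem*-/- replicate 2 had nearly as few, 2509547.

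Levels of different genes were set side by side as RPKM, reads per kilobase of the longest annotated transcript scaled to library size. On that scale *Max* was the most abundant member, with 243 ± 26.2 in *Hvem*-/- and 206 ± 4.67 in WT GC B cells (SD, n = 3 each). *Myc* followed with 60.2 ± 18.7 in *Hvem*-/- and 42.5 ± 8.65 in WT cells, and *Mga* with 33.7 ± 2.07 and 31.3 ± 0.226. Within each sample *Max* exceeded *Myc* and *Myc* exceeded *Mga*, although the *Myc* level of WT replicate 1 (33.6) lay within the range of *Mga* over all samples. *Mnt*, *Mxd1* and *Mxd3* came next. They overlapped in *Hvem*-/- samples, with values of 2.88 to 10.5. In WT samples *Mnt* (7.10 to 10.1) lay above *Mxd1* (4.69 to 6.81) and *Mxd1* above *Mxd3* (3.99 to 4.28). With merged exons as the length, *Mxd1* (3.09 to 4.49) and *Mxd3* (2.93 to 3.15) overlapped in WT samples. Over the longest transcript, *Tfap4*, *Mxi1* and *Mxd4* reached at most 2.47. In *Hvem*-/- samples *Tfap4* (1.30 to 2.47) lay above *Mxi1* (0.620 to 1.26), which overlapped *Mxd4*, and in WT samples the values of these scarce genes overlapped.

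The level of *Max* was 4.58, 4.72 and 3.30 times that of *Myc* in *Hvem*-/- replicates 2, 4 and 6, against 6.00, 4.07 and 4.91 times in WT replicates 1, 3 and 5. *Max* thus outnumbered *Myc* per length in all 6 samples, and it still did with merged exons as the length (2.07 to 2.96 times in *Hvem*-/- and 2.55 to 3.77 times in WT samples). The ratio of *Myc* to the summed repressive MAX partners (*Mxd1*, *Mxd3*, *Mxd4*, *Mxi1*, *Mnt* and *Mga*) was 0.867, 0.993 and 1.40 in *Hvem*-/- replicates 2, 4 and 6, against 0.622, 0.964 and 0.854 in WT replicates 1, 3 and 5. The genotypes overlapped in that ratio too. Within the MXD genes, *Mxd3* made up 46.9%, 68.6% and 29.9% of the summed level in *Hvem*-/- replicates 2, 4 and 6, against 32.4%, 29.5% and 39.8% in WT replicates 1, 3 and 5, so its share ranged widely in *Hvem*-/- cells.

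**Figure D3:**
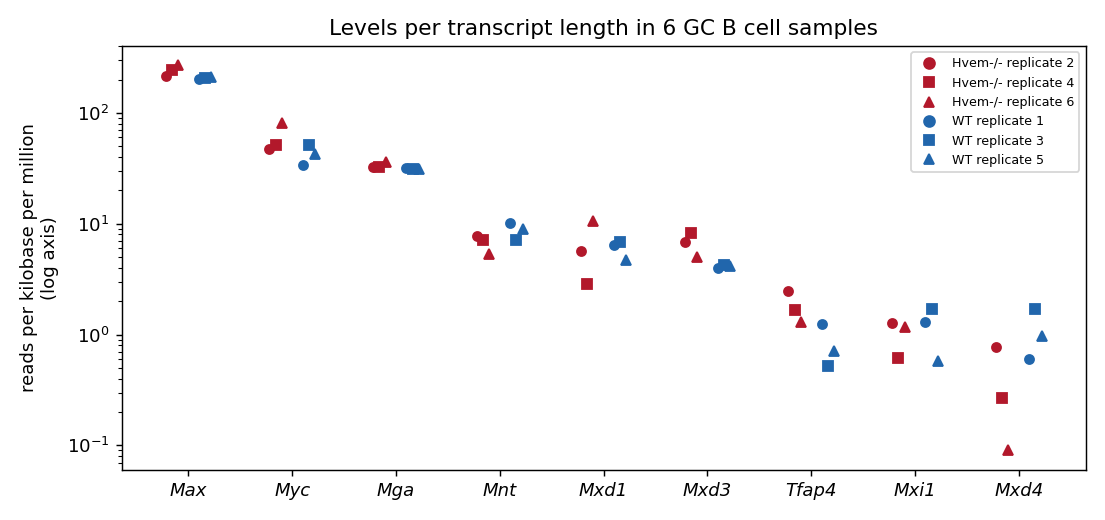
The vertical log axis gives RPKM over the longest transcript for the 9 detected members, with *Hvem*-/- samples in red on the left of each column and WT samples in blue. *Max* stands at 201.6 or more in every sample, *Myc* and *Mga* follow, and *Mnt*, *Mxd1* and *Mxd3* overlap with one another in *Hvem*-/- samples but not in WT samples.

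Among 6566 tested genes with at least 50 reads on average, the 5 whose pattern over the 6 samples came nearest to that of *Myc* were *Rgs10*, *Stk3*, *Aasdhppt*, *Taf9b* and *Bcas2*. Likeness was measured as the root mean square distance between log2 values centered on the mean over samples, which was 0.057 for *Rgs10* and 0.089 to 0.094 for the others, where the profile of *Myc* itself had a root mean square of 0.38. All 5 shared the high value in *Hvem*-/- replicate 6 and the low value in WT replicate 1, and none passed the test (adjusted p = 0.417 to 0.582 from edgeR).

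Fold changes in this experiment followed the GC content of the transcript, with a median of 0.21 in the lowest decile of GC content and -0.26 in the highest. The tested members lay in deciles 2 (*Mga*) to 10 (*Mnt*), and none was in the lowest decile. *Mnt*, with 59.5% GC, sat in the decile with the lowest median and was 0.11 below it, and *Mga*, with 42.2% GC, was 0.03 below the median of its decile. *Myc* (53.3% GC) and *Mxd3* (56.5% GC) were 0.63 and 0.90 above the medians of theirs, in deciles where most genes were lower in *Hvem*-/- cells. *Max*, close to the middle of the range, was 0.26 above.

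**Figure D4:**
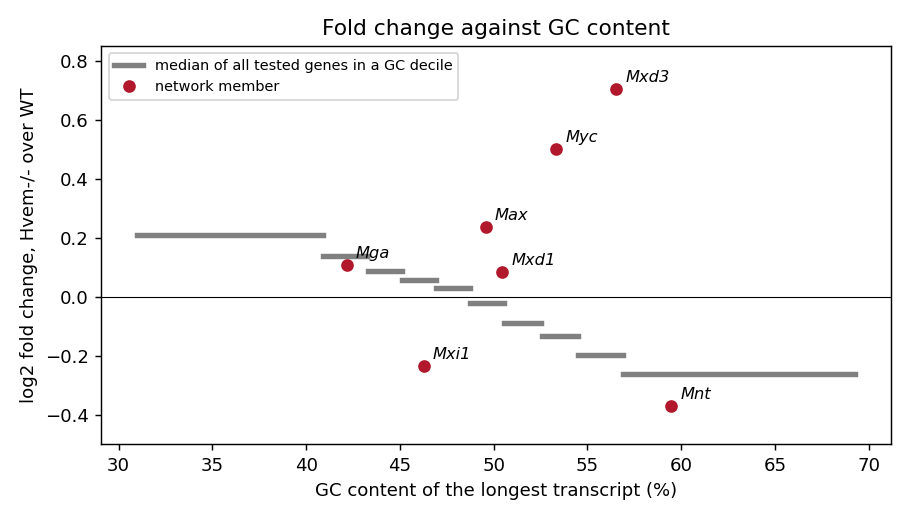
The horizontal axis is the GC content of the longest transcript and the vertical axis the log2 fold change of *Hvem*-/- over WT. Grey bars are medians of all tested genes in each decile of GC content, stepping down from 0.21 to -0.26, and red points are the 7 tested members, of which *Mxd3*, *Myc* and *Max* lie farthest above the bars.

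The proteins that work with the network were followed in 10 lists covering 115 tested genes. None of these passed the threshold with edgeR, with DESeq2 or with limma. Before adjustment, edgeR gave p under 0.05 to 10 higher genes of the 115 (8.70%) and to 8 lower genes (6.96%), against 6.72% and 5.22% of all tested genes. The same shares of all tested genes, 6.72% higher and 5.22% lower, stand beside the counts of each list below. The median log2 fold change of the 115 genes was -0.04.

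A list of related E-box factors held *Mlx* and its partners *Mlxip* and *Mlxipl*, which form a parallel branch of the network, together with *Mycl*, the gene of L-MYC, and the USF factors *Usf1* and *Usf2*. The 4 tested genes (*Mlx*, *Mlxip*, *Usf1* and *Usf2*) were below 0, with a median of -0.22 and none under an unadjusted p of 0.05. *Mlxip*, the gene of the glucose sensor MondoA, stood at -0.06, and at 0.11 with the GC and length correction. *Mlx* had 26.7, 30.0 and 22.5 normalized counts in *Hvem*-/- replicates 2, 4 and 6, against 37.1, 37.7 and 35.8 in WT replicates 1, 3 and 5. The groups of *Mlx* did not overlap, and its log2 fold change was -0.48 (95% interval -1.22 to 0.27, adjusted p = 0.635 from edgeR). *Usf2* stood at -0.28, and at -0.02 with the GC and length correction, which brought the median of the list to -0.0012.

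Of 12 corepressors of MXD and MNT, 6 were above 0 and 6 below, with a median of -0.0009 and none under an unadjusted p of 0.05. The log2 fold change of the deacetylase *Hdac1* was -0.27 (adjusted p = 0.549 from edgeR), that of the scaffold *Sin3b* -0.36 and that of *Brms1* -0.67 (standard error 0.455). With the GC and length correction these were -0.21, -0.15 and -0.40. The 10 other subunits of the Polycomb complex of MGA had a median of -0.06, again with none under an unadjusted p of 0.05. *L3mbtl2*, a defining subunit, stood at -0.37 and the ubiquitin ligase subunit *Ring1* at -0.34, and both were nearer to 0 with the GC and length correction (-0.22 and -0.13).

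Of 14 MYC cofactors, 0 higher and 2 lower genes had an unadjusted p under 0.05, with a list median of -0.02 that became 0.14 with the GC and length correction. *Cdk9*, the kinase that releases paused RNA polymerase and is recruited by MYC, had 66.8, 96.3 and 47.3 normalized counts in *Hvem*-/- replicates 2, 4 and 6, against 131.8, 103.2 and 121.7 in WT replicates 1, 3 and 5. Every *Hvem*-/- sample lay below every WT sample, and the fold change was -0.75 in log2 units (standard error 0.251, adjusted p = 0.219 by edgeR), and -0.69 with the GC and length correction. *Ccnt1*, the cyclin that pairs with CDK9, was at 0.18. *Kat2a*, a histone acetyltransferase of MYC coactivator complexes, was at -0.53 (adjusted p = 0.286) and at -0.31 with the correction.

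Among 15 tested genes that set the stability of the MYC protein, 2 higher and 2 lower genes had an unadjusted p under 0.05. *C330027C09Rik*, the older symbol of *Cip2a*, encodes an inhibitor of the phosphatase PP2A that protects MYC from degradation. It had 653.8, 655.2 and 753.1 normalized counts in *Hvem*-/- replicates 2, 4 and 6, against 475.5, 562.6 and 397.3 in WT replicates 1, 3 and 5. The groups did not overlap, and *C330027C09Rik* stood at 0.52 on the log2 scale (standard error 0.139, adjusted p = 0.109 from edgeR), the smallest adjusted p among the partners. With the GC and length correction it was 0.28 (adjusted p = 0.486). *Aurka*, a mitotic kinase that also binds N-MYC, was at 0.40, and *Gsk3a*, which marks MYC for degradation, at -0.50 and at -0.23 with the correction. The ubiquitin ligase receptor *Fbxw7* was at 0.07 (adjusted p = 0.857), and at 0.03 with the correction.

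Of 18 genes listed as activators of *Myc* transcription in B cells, 2 higher and 3 lower genes had an unadjusted p under 0.05, with a median of -0.11 that became 0.04 with the GC and length correction. *Stat5a*, which relays cytokine signals, had 76.9, 60.05 and 44.9 normalized counts in *Hvem*-/- replicates 2, 4 and 6, against 86.9, 96.5 and 109.8 in WT replicates 1, 3 and 5, without overlap. Its log2 fold change was -0.69 (adjusted p = 0.261 from edgeR). *Mef2c*, a B cell transcription factor, was at 0.27 and *E2f1*, a cell cycle transcription factor, at -0.73, and neither passed the threshold. With the correction they were at 0.08 and -0.46. Of 7 repressors of *Myc* transcription, 1 was higher at an unadjusted p under 0.05, which was *Ikzf1*, the gene of Ikaros (0.27, adjusted p = 0.341 from edgeR).

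The MYC targets listed here were divided between both directions. In the paper, gene set enrichment analysis found more Myc gene signatures in *Hvem*-/- GC B cells than in WT competitors. That analysis used another gene set and another measure, and it was not repeated here. Of 21 tested canonical MYC targets, 10 were above 0 and 11 below, with a median of -0.02, and 1 higher and 1 lower gene had an unadjusted p under 0.05. The higher of these was *Npm1*, a nucleolar chaperone, at 0.38, and at 0.23 with the GC and length correction. The lower was *Fbl*, the nucleolar methyltransferase fibrillarin, with 201.6, 146.6 and 101.7 normalized counts in *Hvem*-/- replicates 2, 4 and 6, against 191.4, 170.9 and 255.4 in WT replicates 1, 3 and 5. The groups of *Fbl* overlapped, and its log2 fold change was -0.47 (adjusted p = 0.410 from edgeR), and -0.36 with the correction. Its lowest value was in *Hvem*-/- replicate 6, the sample with the most *Myc*. *Npm1* instead had its highest value in that sample (10963) and its lowest in WT replicate 1 (6603), as *Myc* did. Among 6 tested TFAP4-linked genes 5 were below 0 and the median was -0.11 (0.03 without WT replicate 1), and *Birc5*, the mitotic survival gene survivin, was the only one above 0 (0.48, adjusted p = 0.202 from edgeR). It also belongs to the proliferation list, whose median was 0.61.

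Genes induced with T cell help had a median of 0.11 over 12 tested genes, and 3 higher and 0 lower genes had an unadjusted p under 0.05. The 3 were *Cflar*, *Birc3* and *Egr1*. *Egr1*, an immediate early transcription factor, had 382.0, 353.2 and 394.9 normalized counts in *Hvem*-/- replicates 2, 4 and 6, against 294.9, 305.2 and 318.1 in WT replicates 1, 3 and 5. The groups of *Egr1* did not overlap, and its log2 fold change was 0.29 (adjusted p = 0.408 from edgeR), and 0.53 (adjusted p = 0.134) with the GC and length correction. Without *Hvem*-/- replicate 6 the median of the list was 0.01, and without WT replicate 1 it was 0.02.

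**Figure D5:**
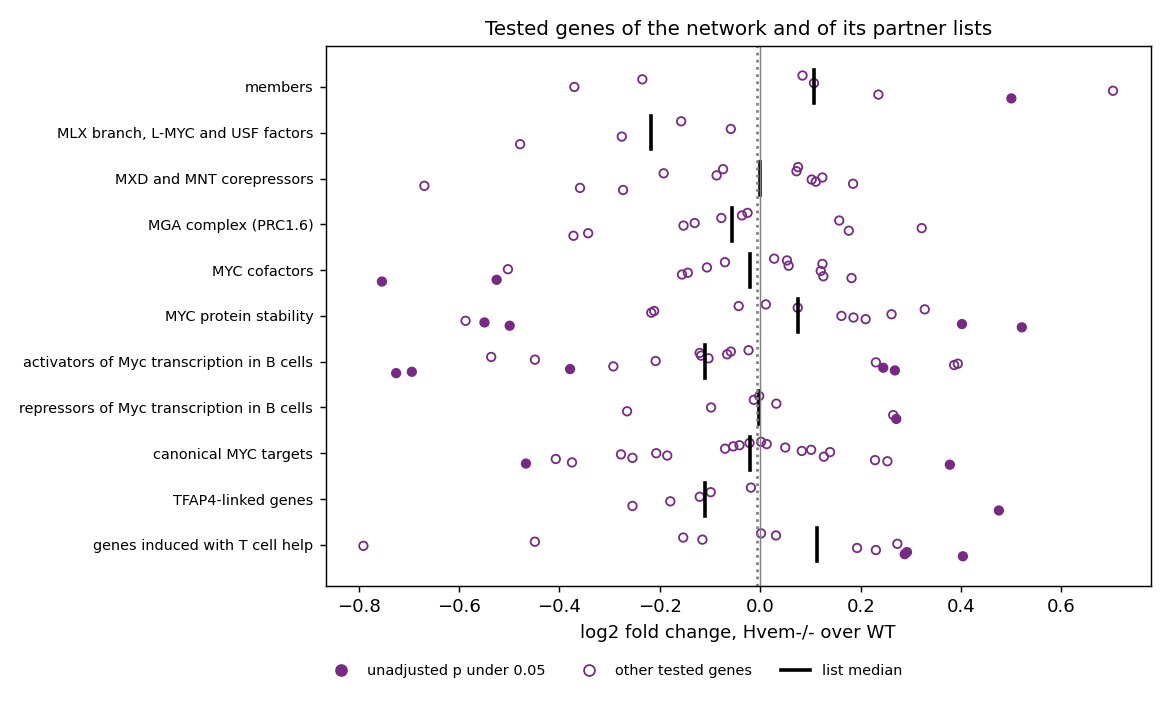
Each circle is a tested gene placed by its log2 fold change of *Hvem*-/- over WT (horizontal axis) in the row of its list, filled where the unadjusted p was under 0.05. Black bars are list medians, which run from -0.22 (MLX branch, L-MYC and USF factors) to 0.11 (genes induced with T cell help and the members), and the dotted line is the median of all tested genes.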

How the data were processed

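RNA from sorted GC B cells of 6 samples was amplified and sequenced. The authors aligned reads with STAR and ran DESeq2 (no versions stated), while the submitters' processing notes list TopHat2 2.0.8b, Cufflinks 2.1.1 and mm10. The values the authors deposited are a signal (gene read counts over a size factor per sample) and its mean. The table the authors deposited also holds their own comparison (log2 fold changes, a Wald score and p-values), which was not used. Whole reads were recovered from 100% of values (relative tolerance 1e-06).

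Counts were tested with edgeR 4.0.16 (filterByExpr minimum 10, TMM, quasi-likelihood, genotype alone). Each standard error was taken as the log2 fold change divided by the root of F. Alternatives were DESeq2 1.42.0, limma 3.58.1 on log2(value + 1 or 0.5), other factors and filters, each sample left out, and a loess correction (span 0.5) for GC content and length in GENCODE vM21, known for 98.8% of tested genes. Functions were tested on simulated data. Pooled ratios carry exact binomial intervals, which cover counting error only. Replicate pairs exceeded sampling noise, with 4.48 to 8.69 for chi-square over its degrees of freedom.

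Members and lists were chosen with earlier results of these data known. Named genes are all members and, of each partner list, up to 3 with the smallest p. *Fbxw7*, from the same lists, was named after its values were seen.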

Additional observations from a re-analysis of the deposited data

How the results depend on the processing

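None of the members tested in a run, and none of the 115 partner genes, passed the threshold of 0.01 under any alternative run, or 0.05 in edgeR. *Mycn* was in no run, and *Mxd4* and *Tfap4* were in only some of them. DESeq2 gave no adjusted p for *Mxd4*, *Mxi1* and *Tfap4*. *Myc*, *Max*, *Mga*, *Mnt* and *Mxd3* kept their direction in all 14 alternatives each, at log2 fold changes of 0.22 to 0.66, 0.16 to 0.31, 0.04 to 0.14, -0.49 to -0.09 and 0.52 to 0.90. *Mxd1* turned to -0.072 and -0.073 with limma at pseudocounts of 1 and 0.5, to -0.066 without WT replicate 5 and to -0.48 without *Hvem*-/- replicate 6, and ranged from -0.48 to 0.45 with a sample left out. *Mxi1* turned to 0.04 without *Hvem*-/- replicate 4 and to 0.11 without WT replicate 3, and ranged from -0.58 to 0.11 with a sample left out. The cause was not tested. Members at an unadjusted p under 0.05 numbered 2 with DESeq2 (*Myc*, *Max*), 2 with no filter (*Myc*, *Mxd4*), 3 with the GC and length correction (*Myc*, *Max*, *Mxd3*) and 1 to 3 with a sample left out, 3 of them without *Hvem*-/- replicate 2 (*Myc*, *Max*, *Mxd4*). Without *Hvem*-/- replicate 6 the only one was *Mxd3* and without WT replicate 1 it was *Mxd4*. At that unadjusted level, all genes numbered 1081 of 14778 with DESeq2, 1519 of 14778 with no filter and 923 of 9653 with the correction. They numbered 1500 of 10033 without *Hvem*-/- replicate 2, 819 of 10102 without *Hvem*-/- replicate 6 and 765 of 9825 without WT replicate 1. Member counts of different runs thus stand against different backgrounds. Over all genes, 21 passed in edgeR, 52 in DESeq2, 84 with no filter, 13 with limma at a pseudocount of 0.5, 8 with the correction, 49 at 0.05 and 3 to 31 with a sample left out. It was 3 without WT replicate 1, 12 without *Hvem*-/- replicate 4 and 13 without WT replicate 3. No paired analysis was possible because no source used here says which samples share a mouse and the genotypes share no replicate number. Depth limits *Mxd4*, *Mxi1*, *Tfap4* and *Mxd3*, each under 50 reads in every sample.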
